A study of Mus musculus with 9 samples.

Results

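The genes described here are the Wnt ligands, their cell-surface receptors and the secreted proteins that modulate them. They were taken by symbol from a table of 23955 gene rows, as every gene named Wnt, Fzd, Rspo or Sfrp with a number, plus Lrp5, Lrp6, Porcn and Wls. The rule found 41 genes, of which 19 are Wnt ligands, 10 are Frizzled receptors, 2 are LRP co-receptors, 2 act in ligand secretion, 4 are R-spondins and 4 are secreted Frizzled-related proteins.

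The 9 samples were organoids, that is, mouse gut epithelium grown in gel culture, and formed 3 groups of 3 biological replicates. The MIN group came from gut epithelium of normal appearance beside the tumors of APCmin/+ mice, which carry a nonsense mutation in 1 copy of Apc in every cell. The adenoma group came from adenomatous polyps of APCmin/+ mice, and the sulindac group came from such polyps with the added treatment of the nonsteroidal anti-inflammatory drug (NSAID) sulindac. All 3 groups therefore carried the Apc mutation, and no wild-type sample was among them. Every culture received the same growth factors, namely Noggin, EGF, bFGF, R-spondin1 and B27 in Advanced DMEM/F12, and no Wnt ligand is listed among them. The age of the mice, the part of the gut, the sulindac dose for the organoids and whether replicates came from separate mice are not given in the sources used here. The p-values below therefore measure the spread between these samples, which may be partly technical.

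Wnt ligands are lipid-modified by the acyltransferase Porcn, carried to the cell surface by Wls, and bound there by a Frizzled receptor together with Lrp5 or Lrp6. Binding stops the complex that contains Apc from degrading beta-catenin, which then drives transcription with TCF and LEF proteins, and loss of Apc function does the same without a ligand. R-spondins, through Lgr receptors, keep the ubiquitin ligases Rnf43 and Znrf3 from removing Frizzled receptors, while secreted Frizzled-related proteins bind Wnt ligands outside the cell. In the small intestine, the Paneth cells of the crypt are a known epithelial source of Wnt3, and cells of the underlying stroma are known to make several other Wnt ligands and R-spondins.

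Library totals ranged from 30881206 to 48412477 counts. Levels are given as CPM (reads of a gene scaled to a fixed library size) after TMM normalization, and a floor of 3 counts corresponded to 0.0641 to 0.10 CPM. The epithelial label was checked against 8 markers, all of which had reads in every group, with a summed level of 4970 to 6870 CPM for MIN, 3027 to 3843 CPM for adenoma and 4080 to 4783 CPM in the sulindac group, and 6 of the 8 were lower in adenoma than in MIN. Relative to MIN, the log2 fold changes of the 8 ran from -10.16 to 0.74 in adenoma and from -9.90 to 1.16 in the sulindac group. In the latter 6 were lower and 1 was higher. Of the 10 mesenchymal markers, Col1a2, Col3a1, Dcn and Lum had 0 counts in all 9 samples, and the 10 together summed to 4.14 to 4.47 CPM, 2.4996 to 4.13 CPM and 1.04 to 1.92 CPM in the respective groups. Of the 4 mesenchymal markers tested between adenoma and MIN, Des rose by 5.59 and Pdgfra by 2.49 on the log2 scale (adjusted p = 0.00103 and 0.000492, edgeR), Pdgfrb was lower, with 127 to 176 counts in the MIN samples against 1, 0 and 0 in adenoma, and Col1a1 did not pass. Leukocyte markers summed to 5.02 to 6.70 CPM, 8.35 to 16.7 CPM and 3.09 to 4.30 CPM in the respective groups, and endothelial and neural markers to at most 7.61 and 2.46 CPM. Between adenoma and MIN Cd68 was higher and Itgam and Lyz2 were lower, which are the 3 leukocyte markers tested, and of 2 endothelial markers tested 1, Pecam1, was lower. The part of such cells in the levels below was not tested. The Paneth cell markers also differed between the groups, and their values are given beside Wnt3. Apc itself stood at 168 to 179 CPM for MIN, 117 to 235 CPM for adenoma and 206 to 234 CPM in the sulindac group, and these counts do not separate its alleles.

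The first comparison asked how the organoids from adenomas differed from those of the MIN epithelium. Adenoma organoids had far more Wnt6, Wnt7b and Wnt10a and less Wnt3 than MIN organoids, more Wls, less Fzd5, and few or no reads of Fzd1 and Fzd8. Of the 41 genes, 26 had enough reads to be tested, 10 were higher in adenoma and 5 were lower by the quasi-likelihood test of edgeR with the false discovery rate (FDR) held at 1%. That is 57.7% of those tested, where 38.7% of all 13744 genes tested passed, 18.5% higher and 20.1% lower. The median log2 fold change was 0.39 over the members tested and -0.01 over all genes. A gene with reads in 1 group alone passes the low-count filter through that group, so these shares are a description.

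The second comparison asked what sulindac changed in adenoma organoids. Sulindac-treated organoids had less Wnt3, Wnt10b, Wnt5b, Wnt10a, Sfrp5, Fzd2 and Fzd9 and more Fzd5, while no difference in Wnt6 or Wnt7b passed the threshold. Of 22 members tested, 1 was higher and 7 were lower, or 36.4%, against 17.4% of all 12962 genes tested, of which 8.32% were higher and 9.1% lower. The median log2 fold change was -0.15 over the members and -0.01 over all genes. With scaling by library size alone, 603 genes were higher and 1983 lower in place of 1078 and 1179, and 7 members were lower as before. The number of members lower was 3 without adenoma replicate 2, without sulindac replicate 1 or without sulindac replicate 3. In these settings 622, 492 and 386 of all genes were lower, in place of 1179.

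The third comparison placed the sulindac group beside MIN, and shares its samples with the other comparisons. Of 23 members tested, 8 were higher in the sulindac group and 6 were lower, or 60.9%, against 49.7% of all 13551 genes tested, of which 23% were higher and 26.8% lower. Wnt6, Wnt7b, Wnt10a, Wnt7a, Fzd6, Lrp5, Wls and Porcn were the higher genes, and Wnt3, Wnt9b, Fzd1, Fzd5, Fzd7 and Fzd8 the lower ones. The median log2 fold change over the members was -0.14, and that over all genes was -0.03.

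**Figure D1:**
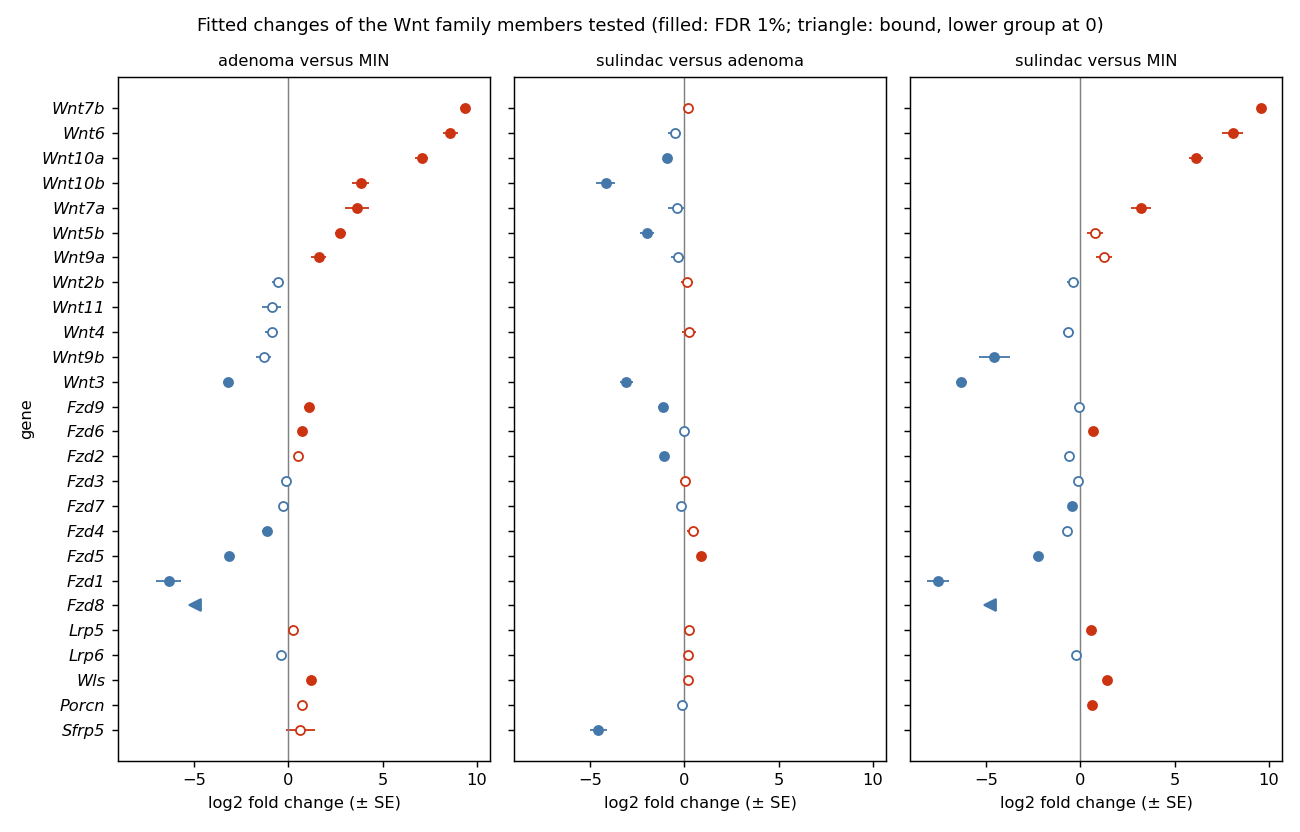
Fitted log2 fold change with its standard error (x axis) for each Wnt family member tested (y axis, ordered by role and then by the change between adenoma and MIN) in the 3 comparisons, as filled points where the FDR was under 1% and open points elsewhere. Fzd8 is drawn as a triangle at the bound set by 3 counts, since the lower group had no reads; Wnt7b, Wnt6 and Wnt10a lie farthest to the right in both comparisons with MIN, with log2 fold changes between 6.13 and 9.59, and within 1 log2 unit of 0 between sulindac and adenoma.

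Of the 19 ligands 12 were tested between adenoma and MIN, with 7 higher, 1 lower and a median log2 fold change of 2.19. Between sulindac and adenoma 10 were tested, of which 4 were lower (median -0.46), and between sulindac and MIN 10, with 4 higher and 2 lower (median 1.02). The shares called were 66.7%, 40% and 60%, where 38.7%, 17.4% and 49.7% of all genes tested were called. Wnt7b, a ligand of epithelia and the nervous system, had the largest of the increases called in adenoma. It was counted 5, 2 and 2 times in the MIN samples, or 0.122, 0.0427 and 0.0545 CPM, and stood at 47.0, 48.01 and 56.5 CPM in adenoma and at 60.3, 52.4 and 62.3 CPM in the sulindac group. All 6 adenoma-derived samples were thus far above MIN, and the ranges of adenoma and sulindac overlapped. Relative to MIN, the log2 fold change was 9.39 ± 0.25 (SE, adjusted p = 4.36e-08, edgeR) in adenoma and 9.59 ± 0.23 (adjusted p = 1.52e-08, edgeR) in the sulindac group, while that between sulindac and adenoma was 0.22 ± 0.11 (adjusted p = 0.177, edgeR). Wnt7b shares 6.61% of its exon bases with AU022754, a gene on the other strand, and reads of the 2 cannot be told apart if strand was not used in counting.

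Wnt6 was likewise close to the floor in MIN and abundant in the adenoma-derived samples. It had 10, 3 and 4 counts in MIN, or 0.243, 0.0641 and 0.109 CPM, against 39.5, 69.6 and 53.5 CPM in adenoma and 19.5, 51.9 and 41.6 CPM in the sulindac group. Sulindac replicate 1 was the lowest of the 6 adenoma-derived samples, yet still far above every MIN sample. Adenoma and MIN differed by a log2 fold change of 8.60 ± 0.38 (SE, adjusted p = 4.73e-07, edgeR), and sulindac and MIN by 8.07 ± 0.53 (adjusted p = 5.54e-06, edgeR). Between sulindac and adenoma it was -0.52 ± 0.33 (adjusted p = 0.254, edgeR), with overlapping samples.

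Wnt10a, the gene next to Wnt6 on chromosome 1, had 2, 2 and 3 counts in MIN, or 0.0487, 0.0427 and 0.0817 CPM. It reached 6.43, 9.25 and 8.56 CPM in adenoma and 4.03, 4.95 and 3.61 CPM in the sulindac group, so that the 3 groups did not overlap and adenoma was the highest. Its log2 fold change from MIN was 7.08 ± 0.35 (SE, adjusted p = 8.33e-07, edgeR) in adenoma and 6.13 ± 0.36 (adjusted p = 1.68e-06, edgeR) in the sulindac group. The lower level under sulindac passed the threshold narrowly, at -0.94 ± 0.20 (adjusted p = 0.00804, edgeR), and did not pass it without adenoma replicate 2 or 3 or without sulindac replicate 1, 2 or 3 (adjusted p = 0.0137 to 0.0401).

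Wnt10b and Wnt5b rose in adenoma and fell again in the sulindac group. Wnt10b had 4, 3 and 3 counts in MIN, 25, 50 and 51 counts in adenoma and 2, 2 and 2 counts in the sulindac group, that is, 0.0641 to 0.0973, 0.702 to 1.47 and 0.0582 to 0.0667 CPM. Its log2 fold change was 3.84 ± 0.46 (SE, adjusted p = 0.000161, edgeR) between adenoma and MIN and -4.18 ± 0.49 (adjusted p = 0.000669, edgeR) between sulindac and adenoma. The sulindac samples overlapped with MIN, each under the floor of 3 counts, and that pair of groups was not tested for this gene.

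Wnt5b, a ligand best known from beta-catenin-independent signaling, stood at 0.365, 0.427 and 0.272 CPM in MIN, at 2.75, 2.57 and 2.02 CPM in adenoma and at 0.567, 0.948 and 0.349 CPM in the sulindac group. Adenoma was above both other groups in every sample, and MIN and sulindac overlapped. On the log2 scale the change was 2.77 ± 0.30 (SE, adjusted p = 9.2e-05, edgeR) between adenoma and MIN, -1.97 ± 0.36 (adjusted p = 0.00417, edgeR) between sulindac and adenoma and 0.78 ± 0.43 (adjusted p = 0.145, edgeR) between sulindac and MIN. The decrease with sulindac missed the threshold without adenoma replicate 1 or 2 or without sulindac replicate 1 or 3 (adjusted p = 0.0115 to 0.0212).

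Wnt7a and Wnt9a rose in adenoma from and to low levels. Wnt7a had 4, 2 and 1 counts in MIN, 17, 17 and 44 counts in adenoma and 13, 16 and 25 counts in the sulindac group. MIN was below every other sample, with a log2 fold change of 3.65 ± 0.64 (SE, adjusted p = 0.00147, edgeR) for adenoma and 3.22 ± 0.53 (adjusted p = 0.000727, edgeR) for sulindac. Wnt9a had 12, 8 and 6 counts in MIN, 17, 29 and 22 in adenoma and 20, 17 and 12 in the sulindac group, so that no MIN sample exceeded 0.292 CPM. The adenoma level was higher by 1.61 ± 0.39 on the log2 scale (SE, adjusted p = 0.00836, edgeR), a call lost when any 1 of the 6 samples was left out (adjusted p = 0.0113 to 0.0407), without the low-count filter (adjusted p = 0.0109) and in DESeq2 (adjusted p = 0.0201), and the sulindac level by 1.27 ± 0.42, which did not pass (adjusted p = 0.0283, edgeR).

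Wnt3, the ligand that Paneth cells make, went the other way, and fell at each step from MIN to adenoma to sulindac. It stood at 20.03, 17.0 and 12.7 CPM in MIN, at 1.54, 2.21 and 1.56 CPM in adenoma and at 0.233, 0.245 and 0.145 CPM in the sulindac group, where it had 7, 8 and 5 counts. None of the 3 groups overlapped with another. On the log2 scale Wnt3 changed by -3.22 ± 0.24 (SE, adjusted p = 1.03e-05, edgeR) between adenoma and MIN, -3.07 ± 0.35 (adjusted p = 0.000577, edgeR) between sulindac and adenoma and -6.31 ± 0.29 (adjusted p = 4.31e-07, edgeR) between sulindac and MIN, and each of these calls held under all alternatives run.

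The Paneth cell markers were ordered in the same way as Wnt3. The 10 markers summed to 16377 to 19582 CPM for MIN, 950 to 1460 CPM for adenoma and 195 to 297 CPM in the sulindac group. In adenoma 8 of the 10 were lower than in MIN and 1, Mmp7, was higher, and in the sulindac group 7 of the 9 tested were lower than in adenoma. The part of Paneth cell content in the Wnt3 levels was not tested, and in such bulk samples fewer cells of a type and less RNA per cell cannot be told apart.

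Wnt9b, which lies next to Wnt3 on chromosome 11, also had its lowest level in the sulindac group. It had 29, 29 and 13 counts in MIN, 7, 7 and 10 in adenoma and 2, 0 and 0 in the sulindac group. The ratio of MIN to sulindac was 27.7, with a 95% counting interval of 7.38 to 232.8 (adjusted p = 0.00112, edgeR). Both sulindac reads were from replicate 1, without which Wnt9b was at least 6.26-fold lower in the sulindac group. The log2 fold change of -1.30 ± 0.40 between adenoma and MIN did not pass the threshold (adjusted p = 0.0247, edgeR), although the groups did not overlap.

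Among the other 10 ligands, Wnt2b, Wnt4 and Wnt11 passed the low-count filter in at least 1 comparison without passing the threshold in any. Their highest levels were 0.736 CPM for Wnt2b, 0.998 CPM for Wnt4 and 0.545 CPM for Wnt11, all in MIN samples. Wnt5a, another ligand of beta-catenin-independent signaling, had 9, 13 and 17 counts in MIN and 0 in all 6 adenoma-derived samples, which makes it at least 3.77-fold lower in adenoma and at least 3.44-fold lower in the sulindac group. It was under the filter, and without the filter its adjusted p was 0.000954 and 0.000736 in the respective comparisons with MIN (edgeR). Wnt1, Wnt2, Wnt3a, Wnt8a and Wnt8b had at most 4 counts in any sample, and Wnt16 had none.

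**Figure D2:**
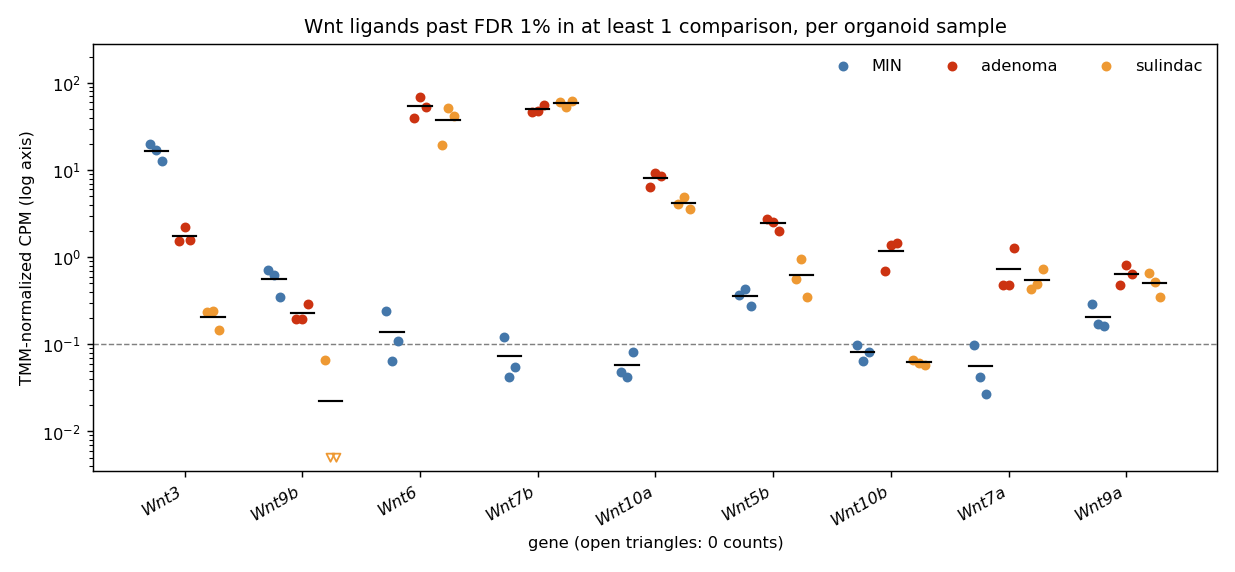
TMM-normalized CPM on a log axis (y) of the 9 Wnt ligands past FDR 1% in at least 1 comparison (x), with 1 point per sample (blue MIN, red adenoma, orange sulindac), a black bar at the group mean, and open triangles at the foot for samples with 0 counts. The dashed line is the highest 3-count floor, 0.10 CPM: Wnt7b, Wnt10a, Wnt10b and Wnt7a lie at or near it in MIN, Wnt10b also in the sulindac group, and Wnt3 steps down from MIN to adenoma to sulindac.

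To compare ligands with each other, levels were divided by the annotated exon length and are given as CPM per kilobase. The summed ligand level was 6.37 ± 1.26 CPM per kilobase (SD, n = 3) in MIN, 40.9 ± 7.87 in adenoma and 31.8 ± 7.11 in the sulindac group, so that all adenoma-derived samples were above MIN while adenoma and sulindac overlapped. In MIN, Wnt3 made up 84.1% ± 2.97 (SD, n = 3) of this sum, at 5.38 CPM per kilobase. In adenoma it made up 1.41% ± 0.18.

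Wnt6 and Wnt7b together made up 1.19% ± 0.59 (SD, n = 3) of the ligand sum in MIN, 85.5% ± 0.73 in adenoma and 91.4% ± 2.08 in the sulindac group. Wnt6 alone accounted for 59.8% ± 5.49 in adenoma and 52.2% ± 13.3 in the sulindac group. Wnt7b contributed 25.7% ± 4.79 in adenoma and 39.2% ± 11.7 in the sulindac group, and Wnt10a 8.01% ± 0.23 and 5.51% ± 1.29. In sulindac replicate 1 the order of the leading pair was exchanged, with 51.7% for Wnt7b and 37.4% for Wnt6, whereas Wnt6 led in the other 5 adenoma-derived samples. This order depends on the exon lengths, which are approximate here: by CPM not divided by length, Wnt7b had the larger share in 5 of the 6 adenoma-derived samples. On that scale the means were 44.3% for Wnt6 and 42.2% for Wnt7b in adenoma. In the sulindac group they were 35.4% for Wnt6 and 57.4% for Wnt7b, the reverse of the order per kilobase.

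**Figure D3:**
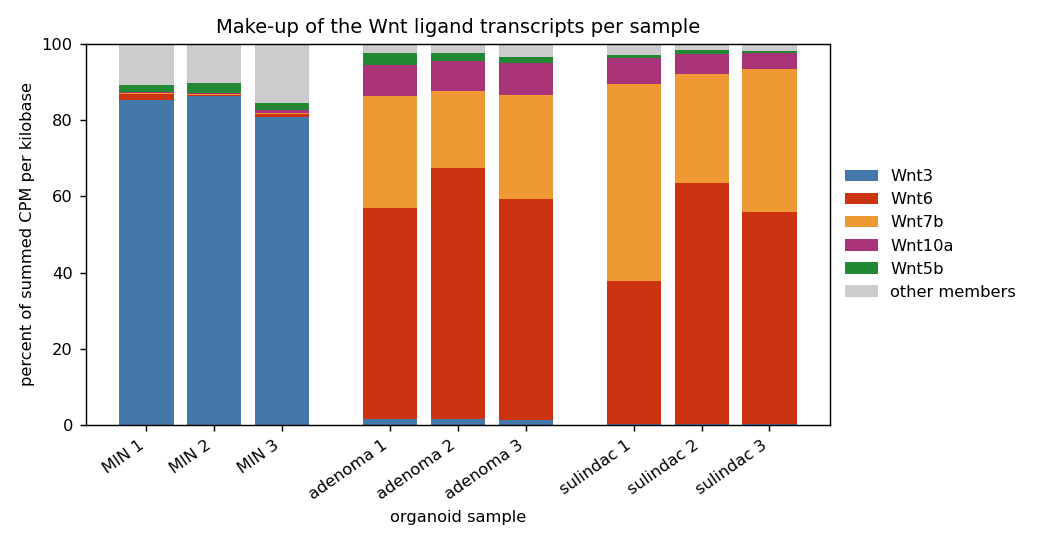
Share of each Wnt ligand in the summed CPM per kilobase of all 19 ligands (y, percent) in each of the 9 organoid samples (x), as stacked bars. Wnt3 fills 80.8% to 86.3% of the bar in the MIN samples, and Wnt6 with Wnt7b fills 84.8% to 93.2% in the adenoma and sulindac samples.

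The 250 bases before the transcription start of 3 ligand genes are shown because these ligands moved in different ways: Wnt3 had the largest share of the ligands per kilobase in MIN, Wnt6 had it in adenoma, and Wnt5b rose in adenoma and fell with sulindac. The sequences are from RefSeq on build GRCm38.p6. Any member entry on 1 chromosome was left out, and 26 of the 41 genes had the 29 promoter entries kept. They were searched on both strands for 4 words of the TCF/LEF binding motif, namely the word CTTTGAA, the word CTTTGAT, the word CTTTGTA and the word CTTTGTT, which cannot overlap each other on 1 strand. Capitals mark a match.
Wnt3 (chr11:103773925-103774174, plus strand): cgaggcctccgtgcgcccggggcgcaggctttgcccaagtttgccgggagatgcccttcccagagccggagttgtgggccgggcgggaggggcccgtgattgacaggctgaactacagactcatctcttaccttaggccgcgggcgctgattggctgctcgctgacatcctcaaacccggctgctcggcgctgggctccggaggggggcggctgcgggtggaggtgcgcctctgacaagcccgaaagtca
Wnt6 (chr1:74771642-74771891, plus strand): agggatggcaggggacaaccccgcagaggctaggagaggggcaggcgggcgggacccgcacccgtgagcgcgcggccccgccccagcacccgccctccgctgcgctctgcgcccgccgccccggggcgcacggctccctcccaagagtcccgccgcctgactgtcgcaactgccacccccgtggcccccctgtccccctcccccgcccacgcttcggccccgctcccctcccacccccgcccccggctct
Wnt5b (chr6:119449387-119449636, minus strand): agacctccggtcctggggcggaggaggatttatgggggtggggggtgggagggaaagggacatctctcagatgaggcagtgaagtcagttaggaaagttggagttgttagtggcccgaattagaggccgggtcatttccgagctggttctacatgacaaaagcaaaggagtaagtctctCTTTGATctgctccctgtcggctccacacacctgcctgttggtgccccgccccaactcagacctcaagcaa

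The Wnt3 and Wnt6 windows held no such word. The Wnt5b window held CTTTGAT, 71 bases before the start, and the other 2 entries of Wnt5b held none. Of the 29 member entries kept, 3 held a word, those of Fzd7, Wnt11 and Wnt5b. A word was held by 14.8% of the 32851 promoters of this length in the table, from which no chromosome was left out. The Wnt6 window had a GC content of 79.6%, the Wnt3 window 68.0% and the Wnt5b window 55.6%, where the median over all promoters was 52.4%.

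Of the Frizzled receptors, 9 of 10 were tested between adenoma and MIN, of which 2 were higher and 4 were lower (median log2 fold change -0.28). Of 7 tested between sulindac and adenoma 1 was higher and 2 were lower (median -0.04), and of 9 between sulindac and MIN 1 was higher and 4 were lower (median -0.59). These are 66.7%, 42.9% and 55.6% called, beside 38.7%, 17.4% and 49.7% of all genes tested. Fzd5, the Frizzled known for its role in Paneth cell maturation, had the largest decrease in CPM of the 4. It stood at 97.6, 113 and 112 CPM in MIN, at 12.5, 13.0 and 11.4 CPM in adenoma and at 22.9, 21.7 and 24.1 CPM in the sulindac group. The groups did not overlap, and the sulindac group lay between the others.

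Its log2 fold change was -3.12 ± 0.12 (SE, adjusted p = 2.16e-07, edgeR) between adenoma and MIN, 0.90 ± 0.12 (adjusted p = 0.00104, edgeR) between sulindac and adenoma and -2.23 ± 0.09 (adjusted p = 2.65e-07, edgeR) between sulindac and MIN. Fzd5 was the only member called higher in sulindac than in adenoma, and its 3 calls held under all alternatives run. Of the 9 Paneth cell markers tested between sulindac and adenoma 7 were lower, and their part in the Fzd5 levels was not tested. In the annotation used here 17.8% of the Fzd5 exon bases lie under Gm38058 on the other strand, so that part of its reads is uncertain if strand was not used.

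Fzd8 and Fzd1 were present in MIN and had few or no reads in the adenoma-derived organoids. Fzd8 had 124, 122 and 83 counts in MIN, or 3.02, 2.61 and 2.26 CPM, and 0 counts in all 6 other samples. Its level was at least 30.9-fold lower in adenoma (adjusted p = 3.14e-05, edgeR) and at least 28.3-fold lower in the sulindac group (adjusted p = 2.61e-05, edgeR). Fzd1 had 126, 99 and 90 counts in MIN, 3, 0 and 0 in adenoma and 0, 0 and 1 in the sulindac group. The ratio of MIN to adenoma was 89.3, with a 95% counting interval of 30.3 to 435.4 (adjusted p = 6.78e-05, edgeR), and that of MIN to sulindac was 245.4, with an interval of 43.7 to 9724 (adjusted p = 9.15e-06, edgeR). All adenoma reads of Fzd1 were from replicate 1 and the sulindac read was from replicate 3. Without these libraries, Fzd1 was at least 29.8-fold lower in adenoma and at least 26.5-fold lower in the sulindac group.

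Fzd4, the receptor of Norrin as well as of Wnt ligands, stood at 11.5, 10.4 and 12.5 CPM in MIN, at 5.70, 6.87 and 3.09 CPM in adenoma and at 6.17, 6.15 and 9.08 CPM in the sulindac group. MIN was above all other samples. The log2 fold change was -1.13 ± 0.27 between adenoma and MIN (SE, adjusted p = 0.00795, edgeR), a call lost without MIN replicate 1, 2 or 3 or adenoma replicate 1 (adjusted p = 0.0166 to 0.0230) and with scaling by library size alone (adjusted p = 0.0202). Between sulindac and MIN it was -0.69 ± 0.19, just short of the threshold (adjusted p = 0.0107, edgeR). That difference passed with RLE size factors, without the low-count filter and without sulindac replicate 3 (adjusted p = 0.00977, 0.0069 and 0.00298, edgeR). It also passed in DESeq2 (adjusted p = 0.00147) and at an FDR of 5%.

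Fzd6 and Fzd9 rose in adenoma. Fzd6, a Frizzled of the planar cell polarity pathway, stood at 20.8, 16.5 and 15.2 CPM in MIN, at 32.8, 29.6 and 23.8 CPM in adenoma and at 26.8, 28.5 and 28.4 CPM in the sulindac group, with MIN below all others. Fzd6 exceeded its MIN level by 0.72 ± 0.17 on the log2 scale (SE, adjusted p = 0.0066, edgeR) in adenoma and 0.67 ± 0.13 (adjusted p = 0.00196, edgeR) in the sulindac group. The former was lost without MIN replicate 2 or 3 or adenoma replicate 1 or 2 (adjusted p = 0.0207 to 0.0306), and the latter held under all alternatives run.

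Fzd9 stood at 4.26, 4.83 and 3.02 CPM in MIN, at 6.43, 8.30 and 11.4 CPM in adenoma and at 4.23, 4.49 and 3.03 CPM in the sulindac group. Adenoma was the highest group without overlap, and the ranges of the others nearly coincided. On the log2 scale the difference was 1.11 ± 0.27 (SE, adjusted p = 0.00789, edgeR) between adenoma and MIN and -1.14 ± 0.24 (adjusted p = 0.00823, edgeR) between sulindac and adenoma. Both calls were narrow, the first being lost without MIN replicate 1, 2 or 3 or adenoma replicate 2 or 3 (adjusted p = 0.0131 to 0.0266) and the second without adenoma replicate 2 or 3 or sulindac replicate 1, 2 or 3 (adjusted p = 0.0138 to 0.0379).

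Fzd2 showed a decrease with sulindac. It stood at 7.47, 8.998 and 5.69 CPM in MIN, at 8.82, 12.4 and 10.1 CPM in adenoma and at 4.30, 6.11 and 4.33 CPM in the sulindac group, where all 3 samples were below adenoma. This difference was -1.08 ± 0.20 on the log2 scale (SE, adjusted p = 0.00446, edgeR), and the call was lost without adenoma replicate 2 or without sulindac replicate 1 or 3 (adjusted p = 0.0166 to 0.0257).

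Fzd7, a Frizzled that Lgr5+ stem cells of the intestine use, differed less between the groups than Fzd5. It stood at 63.1, 71.5 and 86.7 CPM in MIN, at 54.2, 71.5 and 55.98 CPM in adenoma and at 52.5, 56.6 and 52.6 CPM in the sulindac group. The difference of -0.46 ± 0.11 on the log2 scale between sulindac and MIN passed the threshold (SE, adjusted p = 0.00768, edgeR), but not without MIN replicate 2 or sulindac replicate 1, 2 or 3 (adjusted p = 0.0181 to 0.0321) or with all 9 samples in one fit (adjusted p = 0.0147). Fzd3 stood at 3.20 to 5.76 CPM over all 9 samples and passed in no comparison, and Fzd10 had at most 2 counts.

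Per kilobase of exon, the Frizzled receptors together summed to 42.4 ± 2.504 CPM (SD, n = 3) in MIN, 28.9 ± 2.94 in adenoma and 25.5 ± 0.96 in the sulindac group. In MIN Fzd7 and Fzd5 made up 38.3% ± 4.15 and 36.7% ± 1.26 of this sum, and by CPM not divided by length 31.7% ± 3.35 and 46.4% ± 1.57. In adenoma Fzd5 made up 6.20% ± 0.46 and in the sulindac group 13.0% ± 1.04. Fzd7 led in both, with 46.1% ± 2.42 and 46.7% ± 0.62, followed by Fzd6 with 20.8% ± 3.94 and 22.8% ± 0.54.

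**Figure D4:**
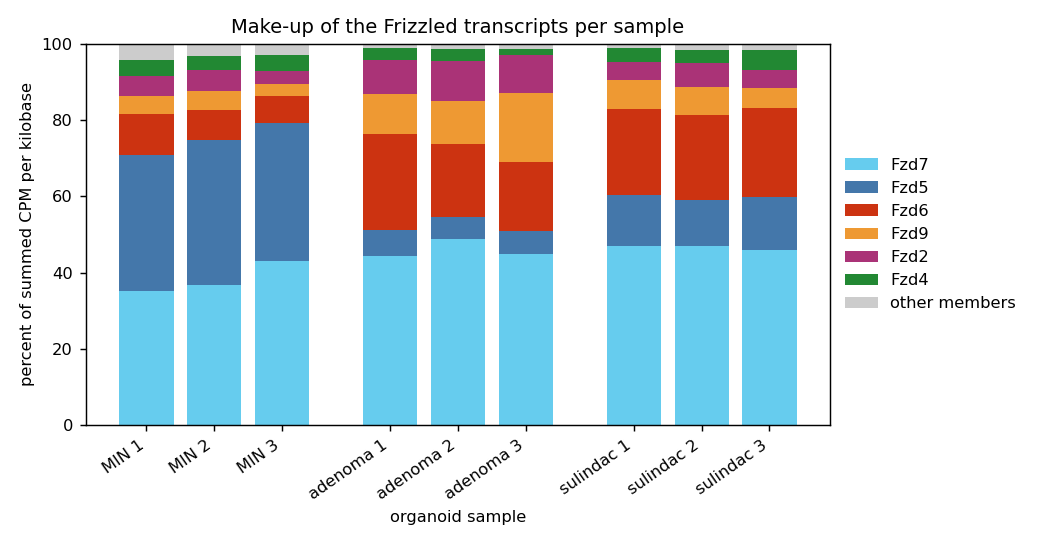
Share of each Frizzled receptor in the summed CPM per kilobase of all 10 Frizzled genes (y, percent) in each of the 9 organoid samples (x), as stacked bars. Fzd5 falls from 35.6% to 38.1% in the MIN samples to 5.85% to 6.71% in adenoma and lies at 11.9% to 13.8% in the sulindac samples.

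The LRP co-receptors moved little. Lrp5 stood at 169, 183 and 174 CPM in MIN, at 228, 223 and 185 CPM in adenoma and at 282, 245 and 237 CPM in the sulindac group, and the 3 ranges did not overlap. The log2 fold change of 0.54 ± 0.09 between sulindac and MIN passed the threshold (SE, adjusted p = 0.00108, edgeR), and those of 0.28 ± 0.11 between adenoma and MIN and 0.27 ± 0.12 between sulindac and adenoma did not (adjusted p = 0.0696 and 0.121, edgeR). Lrp6 stood at 138 to 145 CPM for MIN, 80.5 to 128 CPM for adenoma and 118 to 128 CPM in the sulindac group, and passed in no comparison.

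The ligand carrier Wls was higher in every adenoma-derived sample. It stood at 64.5, 65.3 and 68.8 CPM in MIN, at 156, 168 and 137 CPM in adenoma and at 156, 187 and 178 CPM in the sulindac group. Relative to MIN, Wls rose by 1.21 ± 0.11 on the log2 scale (SE, adjusted p = 2.89e-05, edgeR) in adenoma and 1.39 ± 0.09 (adjusted p = 2.68e-06, edgeR) in the sulindac group, and both calls held under all alternatives run. Sulindac and adenoma differed by 0.18 ± 0.12 (adjusted p = 0.254, edgeR).

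Porcn, which attaches the lipid, stood at 5.06, 4.64 and 5.23 CPM in MIN, at 6.94, 7.57 and 10.5 CPM in adenoma and at 7.50, 7.12 and 8.0001 CPM in the sulindac group. MIN was the lowest group without overlap. Only the comparison of sulindac with MIN passed, at 0.60 ± 0.15 (SE, adjusted p = 0.00786, edgeR), and it was lost without MIN replicate 1 or 2 or sulindac replicate 1, 2 or 3 (adjusted p = 0.0146 to 0.0390), with library size alone, without the low-count filter and with all 9 samples in one fit (adjusted p = 0.0110, 0.0124 and 0.0145). The log2 fold change of 0.75 ± 0.21 between adenoma and MIN had an adjusted p of 0.0148 in edgeR. This difference passed with library size alone and with all 9 samples in one fit (adjusted p = 0.00542 and 0.00456, edgeR). It also passed in DESeq2 (adjusted p = 0.00245) and at an FDR of 5%.

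Among the 4 secreted Frizzled-related proteins, Sfrp5 alone had enough reads for a test. It had 66, 16 and 3 counts in MIN, 31, 47 and 35 in adenoma and 1, 1 and 2 in the sulindac group. The MIN samples spread widely, from 0.0817 to 1.61 CPM, and overlapped with adenoma (log2 fold change 0.65 ± 0.76, adjusted p = 0.502, edgeR). All sulindac samples were under the floor of 3 counts, and the log2 fold change from adenoma was -4.57 ± 0.46 (SE, adjusted p = 0.000364, edgeR), a call that held under all alternatives run. Sfrp1 had 1 to 6 counts in each sample, and Sfrp2 and Sfrp4 had at most 1.

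No R-spondin had enough reads for a test, in cultures that were supplied with R-spondin1. Rspo4 had 12, 8 and 46 counts in MIN and 0 in all 6 adenoma-derived samples, at least 6.73-fold lower in adenoma and at least 6.15-fold lower in the sulindac group. Without MIN replicate 3 the bounds were 2.73-fold and 2.49-fold. Without the low-count filter its adjusted p was 0.0112 and 0.0127 in the respective comparisons with MIN (edgeR), short of the threshold. Rspo1 and Rspo2 had at most 3 counts in any sample and Rspo3 had none.

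**Figure D5:**
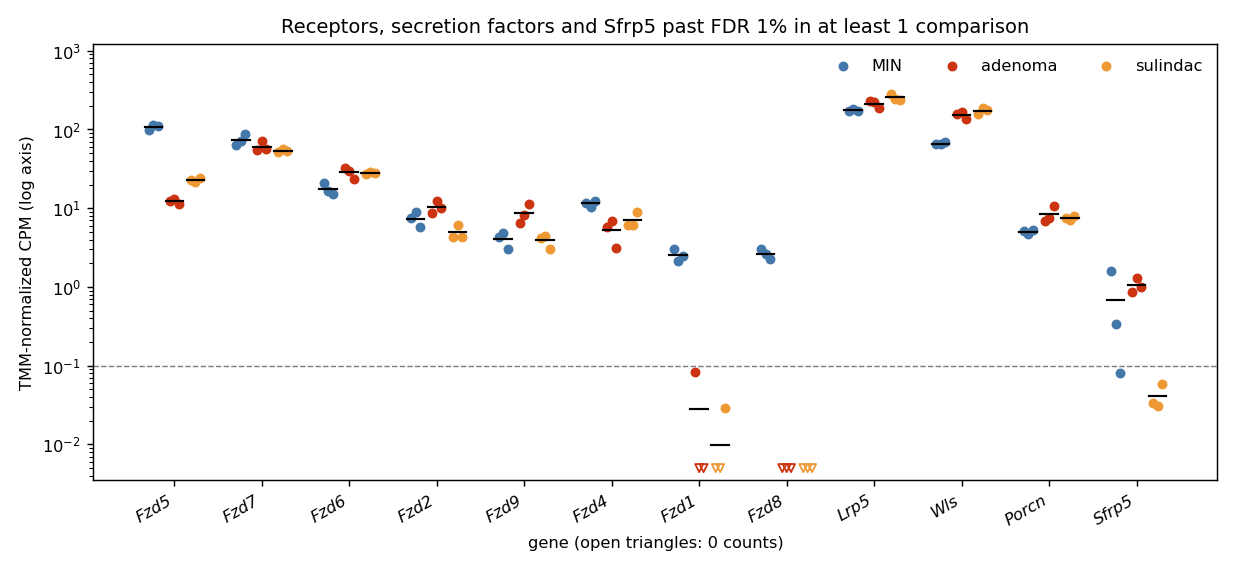
TMM-normalized CPM on a log axis (y) of the 12 members other than ligands past FDR 1% in at least 1 comparison (x), with 1 point per sample (blue MIN, red adenoma, orange sulindac). A black bar marks the group mean, open triangles at the foot mark samples with 0 counts, and a dashed line marks the highest 3-count floor. Fzd5 falls from a mean of 108 CPM in MIN to means of 12.3 CPM for adenoma and 22.9 CPM for the sulindac group, Fzd1 and Fzd8 are present in MIN alone above the floor, and Wls is higher in all 6 adenoma-derived samples.

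The other genes of the pathway were read from the same fits. Of 32 further surface and secreted genes in the table, 18 were tested between adenoma and MIN, with 11 higher and 3 lower, or 77.8% against 38.7% of all genes tested, and a median log2 fold change of 1.37. The highest increases were in secreted inhibitors and feedback genes: Notum, an enzyme that removes the lipid from Wnt ligands, stood at 0.701 ± 0.103 CPM (SD, n = 3) in MIN and 354 ± 68.4 CPM in adenoma, 8.97 higher on the log2 scale (adjusted p = 3.87e-08, edgeR). Wif1, which binds Wnt ligands, rose by 7.97 (adjusted p = 4.52e-06, edgeR), and the membrane inhibitor Apcdd1 by 3.74 (adjusted p = 1.15e-05, edgeR). The R-spondin receptors Lgr5 and Lgr4 were lower, by -1.10 and -0.91 (adjusted p = 0.00149 and 0.000396, edgeR), as was the glypican Gpc3, by -3.36 (adjusted p = 0.000115, edgeR). Gpc3 had 110, 87 and 51 counts in MIN and 8, 6 and 6 in adenoma.

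Under sulindac 1 of 17 tested surface and secreted genes was higher than in adenoma and 7 were lower (median -0.91), or 47.1% against 17.4% of all genes tested. Without sulindac replicate 3 the counts were 0 and 3, and without sulindac replicate 1 none was higher. Over all genes 423 were higher and 386 lower without sulindac replicate 3, and 489 were higher without sulindac replicate 1. Wif1 went from 128 ± 68.9 CPM (SD, n = 3) in adenoma to 10.2 ± 6.16 CPM, a log2 fold change of -3.65 (adjusted p = 0.00153, edgeR). Dkk3 and Apcdd1 were also lower, by -3.05 and -1.65 (adjusted p = 0.00441 and 0.00186, edgeR), and Lgr4 was higher by 0.72 (adjusted p = 0.00182, edgeR). Dkk3 was near the floor, with 15, 26 and 35 counts in adenoma and 4, 3 and 1 in the sulindac group. Relative to MIN, 9 of 17 were higher in the sulindac group and 3 were lower (median 0.52), or 70.6% against 49.7% of all genes tested. The 3 largest increases were in Notum, at 7.87, Wif1, at 4.30, and Dkk2, an antagonist of the LRP co-receptors, at 3.54, and the lower genes were Gpc3, at -4.93, Lgr5, at -2.10, and the receptor Ror2, at -1.58 (log2 fold changes, edgeR, the largest adjusted p being 0.0011, for Dkk2). Near the floor were Dkk2 in MIN, with 2, 3 and 8 counts, and Gpc3 in the sulindac group, with 2, 3 and 1, so the sizes of these folds are uncertain.

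A second list held 38 genes of the pathway, mostly intracellular, but with the membrane proteins Celsr1, Vangl1 and Vangl2 among them. Of these 38, 35 were tested between adenoma and MIN, with 13 higher and 1 lower and a median log2 fold change of 0.40. That is 40% called, close to the 38.7% of all genes tested. The feedback inhibitors Nkd1 and Axin2 rose by 8.15 and 1.63 on the log2 scale (adjusted p = 1.27e-07 and 0.000566, edgeR) and the transcription factor Lef1 by 4.77 (adjusted p = 3.73e-07, edgeR). Axin2 stood at 237 ± 74.3 CPM (SD, n = 3) in MIN and 731 ± 121 CPM in adenoma. The lower gene was Celsr1, a cadherin of planar cell polarity, at -4.69 (adjusted p = 2.71e-06, edgeR).

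Between sulindac and adenoma 2 of 35 tested genes of this second list were higher and 4 were lower (median -0.03), or 17.1% against 17.4% of all genes tested. They numbered 0 higher and 9 lower with library size alone, 4 and 7 in DESeq2 and 4 and 10 at an FDR of 5%. The 2 became 0 without adenoma replicate 1 or 2 or without sulindac replicate 1, 2 or 3, and the 4 became 0 without sulindac replicate 1 or 3 and 2 without sulindac replicate 2. Over all genes, 489, 608 and 423 were higher and 492, 631 and 386 lower without sulindac replicate 1, 2 and 3, respectively. The kinase Csnk1a1 and the transcription factor Tcf7l2 were higher, by 0.57 and 0.49 (adjusted p = 0.00456 and 0.00763, edgeR). The transcription factors Tcf7l1 and Tcf7 and the corepressor Tle3 were lower, by -2.08, -0.62 and -0.75 (adjusted p = 0.00803, 0.0021 and 0.00222, edgeR). Tcf7l1 was near the floor, with 17, 18 and 17 counts in adenoma and 2, 6 and 3 in the sulindac group. Relative to MIN, 16 of 34 were higher in the sulindac group and 4 were lower (median 0.31), or 58.8% against 49.7% of all genes tested, and without sulindac replicate 1 these were 10 and 2, and without sulindac replicate 3 again 2 lower. Nkd1, Lef1 and Tnks2 had the largest increases, at 7.08, 4.18 and 1.36, and Celsr1, Ctnnbip1 and Daam1 the largest decreases, at -4.72, -1.003 and -0.48 (log2 fold changes, edgeR, the largest adjusted p being 0.00337, for Daam1).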

How the data were processed

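RNA-seq of 9 organoid samples (3 MIN, 3 adenoma, 3 sulindac) was used. The authors deposited raw counts, the number of reads per gene symbol without normalization, and the submitters' processing notes name RSEM, Bowtie2 2.2.4 and build mm9. The annotation and the use of strand are not given in the sources used here. Of the 3 columns for MIN replicate 1, the last one, which sums the others in each of the 23955 rows, was used. In 27 rows the symbol reads as a date, and these rows were kept. The titles of the samples gave the group and the replicate number.

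Counts were filtered with filterByExpr, scaled by TMM and tested over all genes by the quasi-likelihood test (glmQLFTest after a robust glmQLFit) in edgeR 4.0.16 and R 4.3.3, with only the groups compared in each fit, Benjamini-Hochberg adjustment and an FDR of 1%. Standard errors were derived from the F statistic, whose square root is the ratio of the log2 fold change to its standard error. Folds against groups at 0 used a floor of 3 counts in each library of that group, and other ratios to 3 or fewer counts carry exact 95% counting intervals, which cover counting error only. CPM in the text were scaled over all 9 samples. Exon lengths and overlaps came from GENCODE M21, a newer build than that of the counts, for all 41 genes, so levels per kilobase are approximate. The test was also run on simulated counts with known changes. Between adenoma and MIN it found 2.99% of 1.5-fold, 38.8% of 2-fold and 86.4% of 4-fold changes at this FDR. Between sulindac and adenoma it found 16.4%, 68.7% and 90.9%, and between sulindac and MIN 22.4%, 76.1% and 92.4%. Small changes could therefore often be missed.

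The members and the pathway and marker lists were chosen with earlier results of these data known. All members past the threshold are named with their values, and of the other pathway lists the 3 largest calls per direction and comparison. Alternatives were DESeq2 1.42.0 (Wald test), scaling by library size alone or by RLE size factors, dropping the low-count filter, fitting all 9 samples at once, adding the replicate number as a block, raising the FDR to 5%, and leaving out each sample, for the folds near the floor as an alternative chosen after seeing the data. The imaging and qPCR of the study were not used here. Same-numbered samples were not treated as pairs, because their correlations were not all above 0.1. These correlations do not show that the samples are unpaired, and the calls with the number as a block are given below.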

Additional observations from a re-analysis of the deposited data

How the results depend on the processing

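No called result changed direction under any alternative run. Of the calls between adenoma and MIN, 11 of 15 held under every alternative, between sulindac and adenoma 4 of 8 (Fzd5, Sfrp5, Wnt10b and Wnt3), and between sulindac and MIN 12 of 14. Counts were least stable between sulindac and adenoma. The 1078 genes higher became 603 with library size alone, 1778 with DESeq2 and 2034 at an FDR of 5%, and 423 to 1403 when 1 sample was left out. The 1179 genes lower became 1983 with library size alone, 2374 at an FDR of 5% and 386 to 1488 when 1 sample was left out, both counts moving by over 1.5 times without adenoma replicate 2 or any 1 sulindac replicate, and the members lower went from 7 to between 3 and 6. Library size alone moved the median of all genes in that comparison from -0.01 to -0.18 on the log2 scale (to 0.12 between adenoma and MIN), and the cause was not tested otherwise. Leaving out a sample also leaves fewer samples for the same test. Genes under the floor, such as Wnt5a and Rspo4 in the adenoma-derived samples, allow bounds alone.

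The correlation of deviations from the group means between same-numbered samples was 0.061 to 0.169 for MIN and adenoma, 0.004 to 0.168 for adenoma and sulindac and -0.037 to 0.228 for MIN and sulindac, and in 6, 4 and 4 of 6 samples it was highest with the same number. With the replicate number as a block, 8 members were higher and 4 lower between adenoma and MIN, 1 and 6 between sulindac and adenoma, and 8 and 7 between sulindac and MIN. Over all genes the block gave 2531 higher and 2733 lower, 872 and 1061, and 3280 and 3791 in the respective comparisons. Under the block Fzd4, Fzd9 and Wnt9a did not pass between adenoma and MIN (adjusted p = 0.0135, 0.0199 and 0.0210, edgeR), Fzd9 did not pass between sulindac and adenoma (adjusted p = 0.0166), and Fzd4 passed between sulindac and MIN (adjusted p = 0.00425).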

Other observations

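Several of the ligand genes lie next to each other in the RefSeq gene order. Wnt6 and Wnt10a are neighbors on chromosome 1, and both were higher in adenoma than in MIN, with log2 fold changes of 8.60 and 7.08. In the sulindac group these were 8.07 and 6.13. Wnt9b and Wnt3 are neighbors on chromosome 11, with log2 fold changes of -1.30 and -3.22 between adenoma and MIN (adjusted p = 0.0247 and 1.03e-05, edgeR), of which that of Wnt9b did not pass. Between sulindac and MIN Wnt3 had a log2 fold change of -6.31 and the ratio of MIN to sulindac was 27.7 for Wnt9b, with a 95% counting interval of 7.38 to 232.8 (adjusted p = 4.31e-07 and 0.00112, edgeR). In the other pairs 1 gene was close to silent: Wnt1, beside Wnt10b on chromosome 15, had at most 2 counts in any sample, and Wnt3a, beside Wnt9a on chromosome 11, had at most 1. These pairs were noticed in the data, and whether neighbors change together more often than other genes was not tested.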
